A study of Mus musculus with 6 samples.

Results

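The Hox genes of primary mouse embryonic fibroblasts (pMEFs) were examined in lines with and without an intact Hat1 gene. Members were taken by symbol, as every row named Hox followed by a cluster letter (a, b, c or d) and a paralogue number, and 37 of the 17512 genes in the count table met this rule. The mouse annotation lists 39 such genes, of which Hoxb1 and Hoxb13 are not analysed here. All 37 passed the filter on low counts and were tested among 14773 genes.

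Hox genes encode homeodomain transcription factors that give cells of the embryo their position along the head-to-tail axis and, in the limb, along the axis from shoulder to digit. They lie in 4 clusters, named HoxA to HoxD, in which genes with a low paralogue number are used in anterior regions and genes with a high paralogue number in posterior and distal regions. Fibroblasts keep much of the Hox pattern of the site they came from when they are grown in culture. HAT1 is the acetyltransferase that modifies newly made histone H4 before it is built into chromatin.

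RNA was sequenced from 6 pMEF lines of C57bl6 background, 3 labelled HAT1 WT (lines 36, 47 and 78) and 3 labelled HAT1 KO (lines 33, 41 and 72). All lines were untreated and grown in the same medium with serum, and by the study's methods pMEFs were isolated from mid-gestation embryos after the internal organs had been taken out. Such a culture holds cells from several body regions, and the sources used here do not give the share of limb, trunk or head tissue in each line. No label ties a WT line to a KO line.

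Library totals ranged from 67720628 to 98786746 counts. Hat1 itself had 17.4, 23.0 and 20.1 CPM (reads scaled to the size of each library) in WT lines 36, 47 and 78 and 10.2, 10.0 and 10.3 CPM in KO lines 33, 41 and 72 (log2 fold change -0.99, SE 0.12, adjusted p = 0.0376 with edgeR's quasi-likelihood test). The 10 fibroblast markers summed to between 57739 and 89814 CPM in every line, against at most 2.49 CPM for 6 epithelial markers and 12.5 CPM for endothelial markers. The 6 myeloid markers were lower in KO lines, with sums of 775 to 913 CPM against 1449 to 1517 CPM in WT lines. Of the 6, 5 passed the adjusted test, against 0.528% of all tested genes. Counts over 4 Y-linked genes were 13788 and 12841 in WT lines 36 and 47, 231 in WT line 78 and at most 8 in the KO lines, so sex of the embryo and genotype were unevenly combined. The part of the myeloid fraction in the Hox values was not tested.

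The 4 clusters lie on 4 chromosomes (GRCm38, GENCODE M21 annotation). HoxA lies on the minus strand of chromosome 6, and HoxB occupies chr11:96194316-96368256 on the plus strand. HoxC occupies chr15:102921103-103036852 and HoxD chr2:74668310-74765142, both on the plus strand. HoxD lies 3.227 Mb from the end of Hat1, on the same chromosome. HoxA has 11 genes in the table, HoxB 8, HoxC 9 and HoxD 9.

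A RefSeq promoter entry was found for 21 of the 37 genes, and the 250 bases before the transcription start (GRCm38.p6) are printed for 5 of them. Hoxd13 and Hoxa13, which pattern the most posterior and distal structures, are shown because their levels differed most between the 6 lines. Hoxd12 and Hoxd11 are shown because they had an unadjusted p below 0.05, and Hoxd8 because it had the highest level of all Hox genes in WT lines. Capitals mark CCAAT and TATAAA, the letters of the CCAAT box and the TATA box, on either strand.
Hoxd13 (chr2:74667975-74668224, plus strand): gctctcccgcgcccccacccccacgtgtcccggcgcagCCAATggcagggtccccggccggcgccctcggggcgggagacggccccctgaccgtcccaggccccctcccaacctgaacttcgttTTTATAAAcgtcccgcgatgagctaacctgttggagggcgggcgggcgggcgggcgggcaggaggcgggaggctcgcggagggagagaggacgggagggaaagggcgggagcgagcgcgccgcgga
Hoxa13 (chr6:52260881-52261130, minus strand): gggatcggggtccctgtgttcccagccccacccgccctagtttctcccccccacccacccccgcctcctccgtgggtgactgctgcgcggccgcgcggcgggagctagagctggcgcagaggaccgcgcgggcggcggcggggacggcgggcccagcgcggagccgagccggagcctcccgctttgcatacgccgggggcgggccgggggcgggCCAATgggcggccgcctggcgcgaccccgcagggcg
Hoxd12 (chr2:74674763-74675012, plus strand): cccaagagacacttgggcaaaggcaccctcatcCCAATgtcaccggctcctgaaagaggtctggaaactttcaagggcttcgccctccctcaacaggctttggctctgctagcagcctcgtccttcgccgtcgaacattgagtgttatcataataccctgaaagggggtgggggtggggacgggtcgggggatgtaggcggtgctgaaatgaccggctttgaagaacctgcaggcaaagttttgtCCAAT
Hoxd11 (chr2:74679308-74679557, plus strand): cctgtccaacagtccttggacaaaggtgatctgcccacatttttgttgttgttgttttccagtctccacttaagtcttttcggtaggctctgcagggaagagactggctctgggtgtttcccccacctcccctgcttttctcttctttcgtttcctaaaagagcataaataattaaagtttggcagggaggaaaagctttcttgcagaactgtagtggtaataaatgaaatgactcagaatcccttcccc
Hoxd8 (chr2:74704365-74704614, plus strand): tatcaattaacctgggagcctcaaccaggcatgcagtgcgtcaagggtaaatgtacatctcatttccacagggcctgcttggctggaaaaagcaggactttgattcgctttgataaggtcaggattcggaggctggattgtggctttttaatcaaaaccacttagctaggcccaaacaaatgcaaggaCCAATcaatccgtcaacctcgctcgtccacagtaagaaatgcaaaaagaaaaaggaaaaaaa
The Hoxd13 window holds both motifs, the Hoxa13, Hoxd12 and Hoxd8 windows hold CCAAT, and the Hoxd11 window holds neither. The motif CCAAT was found in 12 of the 21 Hox windows (57.1%) and in 34.5% of 27025 promoter windows of the same length. TATAAA was found in 3 of 21 (14.3%) and in 12.97% of all windows. GGGCGG, the letters of the GC box, was in 9 of 21 (42.9%) and in 32.9% of all. CAATAAA, a core that posterior Hox proteins can bind, was found in 1 of 21 windows (4.76%) against 4.42% of all, and TGACAG, a core bound by Meis proteins, in 2 of 21 (9.52%) against 16.0%. The median ratio of observed to expected CpG was 0.687 in the Hox windows and 0.378 over all windows. Among the printed windows it was 0.901 for Hoxd13, 0.875 for Hoxa13, 0.520 for Hoxd12, 0.487 for Hoxd8 and 0.160 for Hoxd11. These are descriptions of the letters in the windows.

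The clusters also carry the genes of miR-10 and miR-196, small RNAs known to act on Hox messages. Their mature sequences (RefSeq, GRCm38.p6) are printed because they share 2 seeds across the 4 clusters, and capitals mark the seed, bases 2 to 8.
miR-10a-5p: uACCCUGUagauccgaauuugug
miR-10b-5p: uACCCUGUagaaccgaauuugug
miR-196a-5p: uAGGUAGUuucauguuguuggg
miR-196b-5p: uAGGUAGUuuccuguuguuggg
miR-10a, miR-10b and their shared seed come from HoxB and HoxD, and the miR-196 seed from HoxA, HoxB and HoxC. The Hoxb8 transcript has a known miR-196 site, and the best match lay after the coding sequence at chr11:96284888-96284909, on the plus strand (GRCm38), with 21 of 22 bases complementary to miR-196a-5p by strict base pairing. It is printed with the bases opposite the seed in capitals, and the unpaired base, a G facing a U of the seed, lies among them.
Hoxb8 site: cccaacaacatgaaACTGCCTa
The libraries count reads of longer RNA and do not measure mature miRNA. Mir196a-1 was the only one of the miRNA rows in the clusters that passed the filter on low counts, at 0.689, 0.484 and 0.313 CPM in WT lines 36, 47 and 78 and 0.292, 0.399 and 0.544 CPM in KO lines 33, 41 and 72. The ranges overlap (log2 fold change -0.26, SE 0.41, unadjusted p = 0.547).

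In WT lines the Hox code of the cultures was centred on the middle of the clusters. Levels between genes are given as CPM per kb of exon, averaged over 3 lines with the SD. Hoxd8 led at 14.1 ± 6.71 CPM per kb, and Hoxb9 at 10.97 ± 2.77, Hoxc8 at 7.17 ± 1.27 and Hoxc6 at 6.67 ± 1.21 CPM per kb came next. These genes are used in the trunk. Of the 36 pairs of neighbours in the order of levels, 2 had WT lines that did not overlap, Hoxb9 above Hoxc8 and Hoxc6 above Hoxd9. The first of these depended on the length used. With the longest transcript of Hoxc8 (2223 bp) in place of its merged exons (2832 bp), the WT lines of Hoxb9 and Hoxc8 overlapped. The rest of the order was within the spread between lines.

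In HoxA the levels in WT lines were low up to paralogue 9 and peaked at Hoxa10, which patterns the lumbar region and the limb segment nearest the body, at 2.59 ± 0.693 CPM per kb. Hoxa2, Hoxa3 and Hoxa4 had 0.633 ± 0.195, 0.273 ± 0.0362 and 0.265 ± 0.0643 CPM per kb. Hoxa5 had 1.17 ± 0.503, Hoxa6 0.499 ± 0.154, Hoxa7 0.873 ± 0.359 and Hoxa9 0.514 ± 0.123 CPM per kb. Past the Hoxa10 peak, Hoxa11 had 0.775 ± 0.290 and Hoxa13, at the distal end of the cluster, 0.262 ± 0.153 CPM per kb.

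In HoxB the highest level was that of Hoxb9, the most posterior gene tested, with no steady rise from Hoxb4 to Hoxb8. Hoxb2 had 0.391 ± 0.0980, Hoxb3 1.02 ± 0.248, Hoxb4 3.17 ± 0.862 and Hoxb5 1.04 ± 0.526 CPM per kb in WT lines. Hoxb6 had 3.02 ± 0.313, Hoxb7 2.13 ± 0.342 and Hoxb8 2.85 ± 0.325 CPM per kb, below Hoxb9. In HoxC the highest means were those of Hoxc8 and Hoxc6, given above, beside 2.05 ± 0.675 CPM per kb for Hoxc4 and 3.05 ± 0.923 for Hoxc5. Hoxc9 had 1.56 ± 0.885, Hoxc10 2.63 ± 2.21, Hoxc11 0.154 ± 0.158, Hoxc12 0.0493 ± 0.0482 and Hoxc13 0.166 ± 0.0730 CPM per kb.

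HoxD had a sharp peak, since Hoxd8 and its neighbour Hoxd9 (3.75 ± 1.35 CPM per kb) stood above every other HoxD gene in WT lines. Anterior to them Hoxd1 had 0.293 ± 0.0467, Hoxd3 0.129 ± 0.0721 and Hoxd4 0.332 ± 0.157 CPM per kb. Posterior to them Hoxd10 had 0.354 ± 0.185, Hoxd11 0.0990 ± 0.0369, Hoxd12 0.0450 ± 0.0186 and Hoxd13 1.05 ± 0.956 CPM per kb. Use of strand in the counting was not stated, and several Hox rows share exon sequence with neighbours. On the opposite strand, Hoxb3os covers 52.9% of the exon length of Hoxb3 and 27.3% of that of Hoxb2, and Hoxa11os covers 35.0% of Hoxa11. Hoxd3 and Hoxd4 overlap each other and a further transcript on the same strand, over 62.3% of Hoxd3 and 52.3% of Hoxd4, so their split is uncertain. Hoxa13 and Hoxd13 overlap no other annotated exon.

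**Figure D1:**
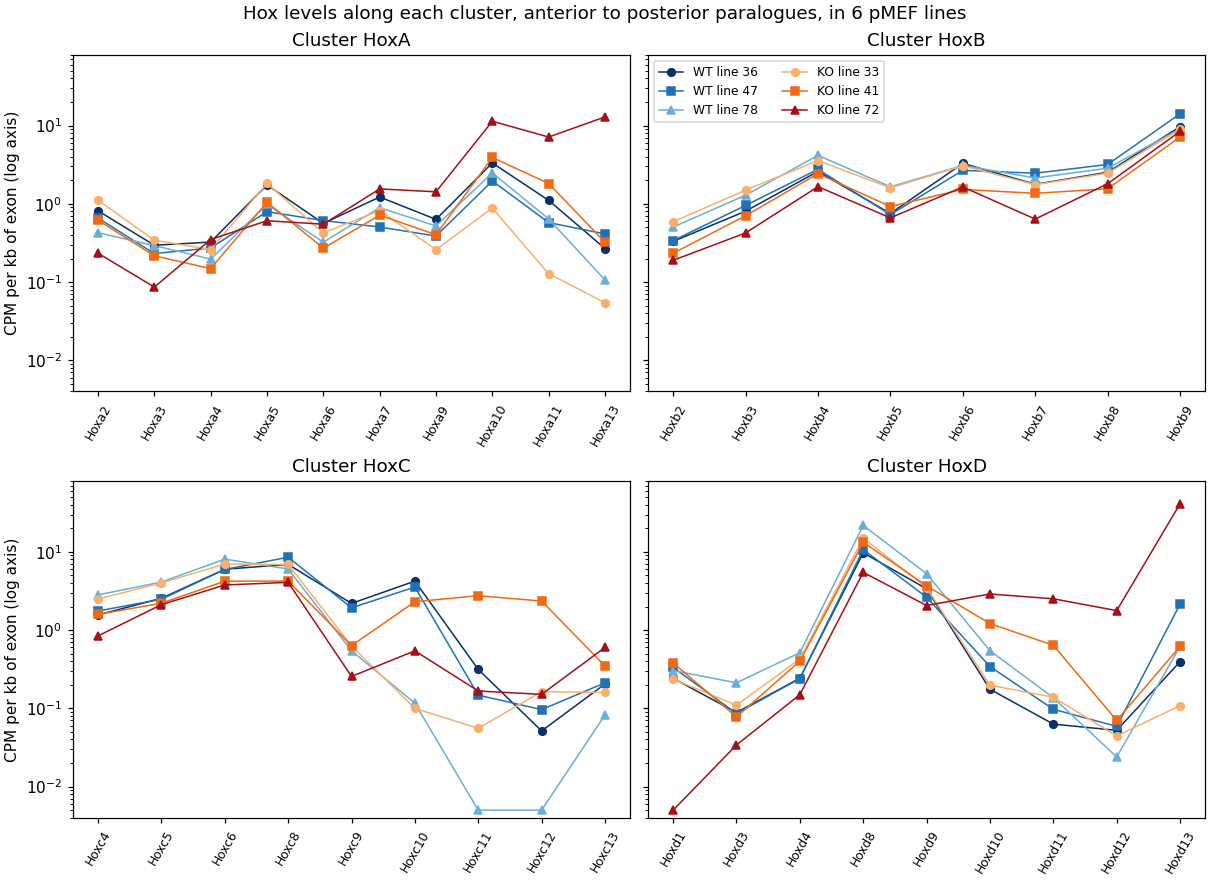
CPM per kb of exon (log axis) of 36 Hox genes along each cluster, 1 line of points for each of the 3 WT lines (blue) and 3 KO lines (orange and red), with the 3 values of 0 drawn at 0.005. KO line 72 is at 0 for Hoxd1 and is highest at Hoxa13 and Hoxd13, KO line 41 is highest at Hoxc11 and Hoxc12, and WT line 78 is at 0 for those HoxC genes.

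The comparison of HAT1 KO with HAT1 WT asks whether loss of the enzyme goes with another Hox pattern. No Hox gene passed the adjusted threshold with edgeR (0 of 37, against 0.528% of all tested genes), and 5 of 37 (13.5%) had an unadjusted p below 0.05, against 14.6% of all tested genes. Of the 5, 2 were lower in KO lines (background 8.77%) and 3 higher (background 5.88%). DESeq2 called 1, Hoxd11 (adjusted p = 0.00243), where it called 5.88% of all genes. By the thresholds of the study, at least 1.5-fold with an unadjusted p below 0.05, 1 Hox gene was lower (Hoxc9) and 3 were higher (Hoxd11, Hoxc12 and Hoxd12) in KO lines, against 4.62% and 1.5% of all genes in those directions and 6.11% in either. Fold changes alone were wide, since 14 of 37 Hox genes (37.8%) differed by at least 1.5-fold whatever the p, against 14.1% of all genes. The KO lines did not overlap the WT lines for 3 lower genes (Hoxb7, Hoxb8 and Hoxb9, 8.11% of the Hox genes against 12.4% of all genes) and 2 higher genes (Hoxd11 and Hoxc12, 5.41% against 9.59%). Hoxc12 passed the filter on low counts only through the KO lines, so its direction and lack of overlap were built in.

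In the fit of all 6 lines the direction differed with position. All 8 genes of paralogues 11 to 13 had a positive log2 fold change, with a median of 3.59 and a range of 1.15 to 4.17. Of the 22 genes of paralogues 1 to 8, 18 were lower and 4 higher in KO lines, with a median log2 fold change of -0.29. The 7 genes of paralogues 9 and 10 were split, 4 lower and 3 higher. Without KO line 72, paralogues 11 to 13 were 2 lower and 6 higher (median 0.49) and paralogues 1 to 8 were 10 lower and 12 higher (median 0.014). With voom and sample quality weights the splits were 3 lower and 5 higher (median 0.71) and 14 lower and 8 higher (median -0.089). The median over all 14773 tested genes was 0.01. Genes of a cluster are neighbours in the same 6 libraries and are not independent, so these counts are given without a test.

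**Figure D2:**
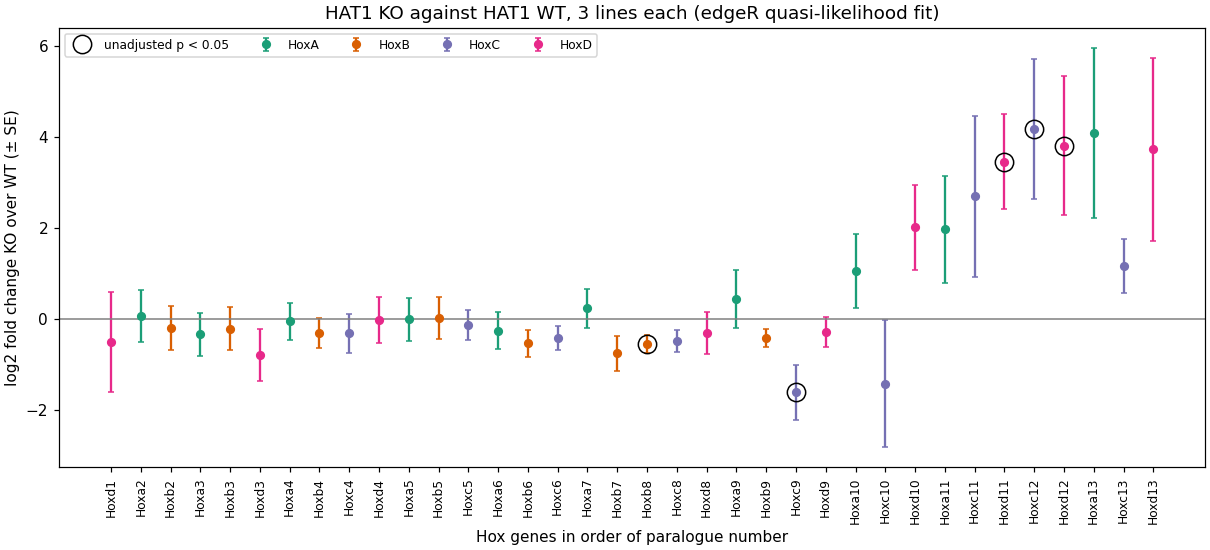
Log2 fold change of HAT1 KO over HAT1 WT (points) with its SE (bars) for 36 Hox genes in order of paralogue number, coloured by cluster, with a black ring where the unadjusted p was below 0.05. Values lie near or below 0 up to paralogue 8 and all 8 points of paralogues 11 to 13 lie above 0, with SEs of up to 2.01.

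The posterior HoxD genes, which pattern the lower limb segments and digits, were high in KO line 72. Hoxd13 had 0.981, 5.34 and 1.54 CPM in WT lines 36, 47 and 78 and 0.269, 1.54 and 102 CPM in KO lines 33, 41 and 72. KO line 33 had the lowest value of all and KO line 72 the highest, so the groups overlap, and the fit gave no call (log2 fold change 3.73, SE 2.01, unadjusted p = 0.112). Without KO line 72 the log2 fold change was -1.54. The read numbers behind the 6 values, in the same order, were 74, 430, 152, 24, 104 and 7887. Hoxd12 had 0.133, 0.149 and 0.0606 CPM in WT lines and 0.112, 0.178 and 4.50 CPM in KO lines, again with KO line 72 far above the rest, and the fit gave a log2 fold change of 3.80 (SE 1.52, unadjusted p = 0.0451, adjusted p = 0.331), and 0.36 without KO line 72.

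Hoxd11, which shapes the forearm and shank, was higher in all 3 KO lines than in any WT line. It had 0.265, 0.410 and 0.576 CPM in WT lines and 0.584, 2.69 and 10.6 CPM in KO lines 33, 41 and 72. The margin between WT line 78 and KO line 33 was small, at 57 reads and, in the smaller library of the KO line, 52 reads. The fit gave a log2 fold change of 3.46 (SE 1.03, unadjusted p = 0.0146, adjusted p = 0.225), and 1.96 without KO line 72. Hoxd10 had 0.318, 0.621 and 0.990 CPM in WT lines and 0.359, 2.20 and 5.26 CPM in KO lines, with KO line 33 inside the WT range (log2 fold change 2.01, SE 0.93, unadjusted p = 0.0712, adjusted p = 0.387).

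HoxA showed the same line at its posterior end. Hoxa13, a partner of Hoxd13 in the digits, had 0.663, 1.02 and 0.263 CPM in WT lines and 0.135, 0.799 and 31.9 CPM in KO lines 33, 41 and 72. KO lines 33 and 41 lay below WT line 47 while KO line 72 stood far above it (log2 fold change 4.08, SE 1.88, unadjusted p = 0.0705, adjusted p = 0.386), and without KO line 72 the log2 fold change was -0.48. Hoxa11 had 2.53, 1.32 and 1.47 CPM in WT lines and 0.292, 4.16 and 16.3 CPM in KO lines. Hoxa10 had 10.9, 6.40 and 8.12 CPM in WT lines and 2.89, 12.8 and 37.1 CPM in KO lines. For both genes KO line 33 was the lowest line and KO lines 41 and 72 were the highest, with log2 fold changes of 1.97 (unadjusted p = 0.143) and 1.06 (unadjusted p = 0.239), which without KO line 72 were 0.33 and -0.10.

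Set against the median of the other 5 lines, the excess in KO line 72 grew with paralogue number in both clusters. In HoxD it was 8.47-fold for Hoxd10, 18.4-fold for Hoxd11, 33.9-fold for Hoxd12 and 66.6-fold for Hoxd13. In HoxA it was 3.53-fold for Hoxa9, 4.57-fold for Hoxa10, 11.1-fold for Hoxa11 and 48.1-fold for Hoxa13. The ratio of Hoxd13 to Hoxd8, both in CPM per kb, was 7.52 in KO line 72 and between 0.00723 and 0.201 in the other 5 lines. In that line paralogues 10 to 13 held 86.2% of the summed HoxD level and 84.7% of the summed HoxA level, while in the other lines they held 2.48% to 15.9% of HoxD and 14.8% to 61.0% of HoxA.

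**Figure D3:**
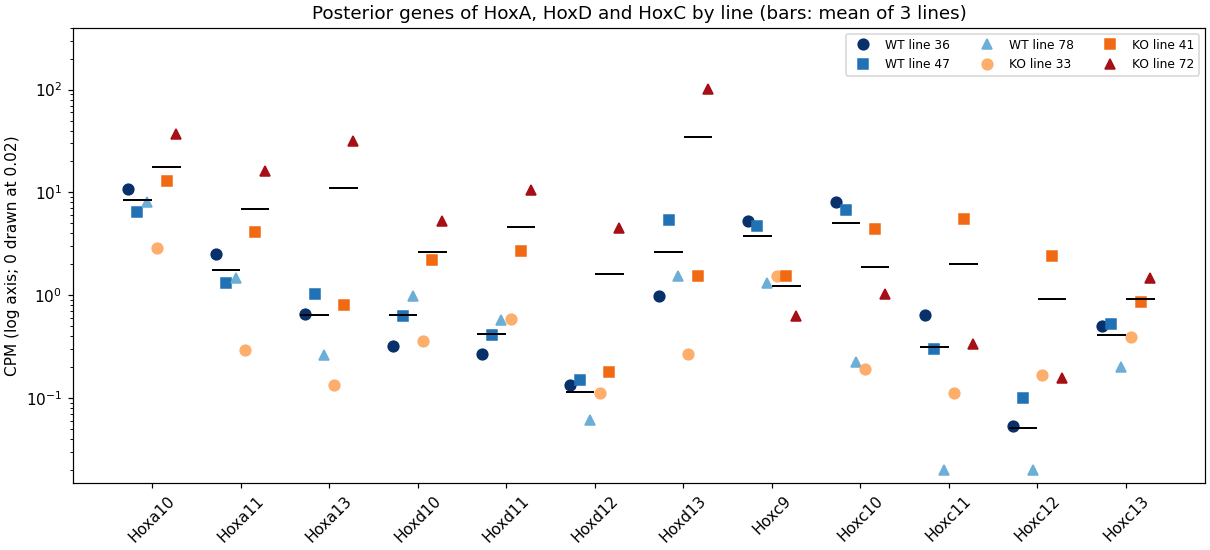
CPM (log axis) of the posterior HoxA, HoxD and HoxC genes in each of the 3 WT lines (blue) and 3 KO lines (orange and red), with black bars at the mean of 3 lines and values of 0 drawn at 0.02. KO line 72 is the highest point for the HoxA and HoxD genes shown, and KO line 41 for Hoxc11 and Hoxc12.

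In HoxC the high line was KO line 41. Hoxc12, one of the most posterior genes of the cluster, had 4, 8 and 0 reads in WT lines 36, 47 and 78 and 15, 164 and 12 reads in KO lines 33, 41 and 72, which is 0.0530, 0.0994 and 0 CPM against 0.168, 2.43 and 0.156 CPM. All KO lines were above all WT lines, with KO line 41 far above the rest (log2 fold change 4.17, SE 1.54, unadjusted p = 0.0332, adjusted p = 0.301). Hoxc12 passed the filter on low counts only through its KO lines, so its direction and lack of overlap were built in. Without KO line 41 the log2 fold change was 1.70 (unadjusted p = 0.172). Hoxc11 had 0.636, 0.298 and 0 CPM in WT lines and 0.112, 5.56 and 0.337 CPM in KO lines, and without KO line 41 its log2 fold change turned from 2.69 to -0.46.

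Hoxc10, a hindlimb and lumbar gene, separated the lines across genotypes. It had 8.07, 6.78 and 0.222 CPM in WT lines 36, 47 and 78 and 0.191, 4.41 and 1.04 CPM in KO lines 33, 41 and 72. WT lines 36 and 47 and KO line 41 were high, and WT line 78 and KO line 33 were near 0, so the groups overlap throughout (log2 fold change -1.42, SE 1.39). Hoxc9, its neighbour, had 5.33, 4.68 and 1.32 CPM in WT lines and 1.53, 1.54 and 0.622 CPM in KO lines, and WT line 78 lay among the KO lines. The fit gave a log2 fold change of -1.62 (SE 0.60, unadjusted p = 0.0344, adjusted p = 0.303). With WT line 78 as the sole WT line, the one that like the KO lines had few Y-linked reads, Hoxc9 had a log2 fold change of -0.09. Hoxc13 stayed between 0.202 and 1.48 CPM in all lines.

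Among the genes used in the trunk, those with the smallest p were lower in KO lines, by smaller amounts than the posterior genes were higher. Hoxb8 had 6.67, 8.38 and 7.51 CPM in WT lines and 6.49, 4.10 and 4.76 CPM in KO lines, so every KO line was below every WT line (log2 fold change -0.56, SE 0.20, unadjusted p = 0.0323, adjusted p = 0.300). Hoxb9, which sets rib pattern with its paralogues, had 24.9, 36.4 and 23.4 CPM in WT lines and 23.0, 18.4 and 21.7 CPM in KO lines (log2 fold change -0.42, SE 0.19, unadjusted p = 0.0655, adjusted p = 0.376). Hoxb7 had 2.74, 3.80 and 3.30 CPM in WT lines and 2.72, 2.10 and 0.985 CPM in KO lines (log2 fold change -0.76, SE 0.38, unadjusted p = 0.0902, adjusted p = 0.423). For each of these HoxB genes the groups do not overlap but the gap is narrow, and 0.1 is the smallest p that an exact permutation test of 3 lines against 3 can give. Hoxc8 had 19.6, 24.2 and 17.1 CPM in WT lines and 19.5, 11.998 and 11.6 CPM in KO lines, with KO line 33 inside the WT range (log2 fold change -0.50, SE 0.24, unadjusted p = 0.0825, adjusted p = 0.411).

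The most abundant HoxD gene, Hoxd8, had 26.7, 29.4 and 59.8 CPM in WT lines and 41.2, 36.5 and 15.02 CPM in KO lines. KO line 72 was the lowest and WT line 78 the highest, and the other 4 lines lay between them (log2 fold change -0.32, SE 0.46), and without KO line 72 the log2 fold change was 0.018. Among the genes of paralogues 2 and 3, log2 fold changes went from -0.80 (Hoxd3) to 0.05 (Hoxa2). Hoxa2, Hoxa3, Hoxb2 and Hoxb3 were highest in KO line 33, and they and Hoxd3 were lowest in KO line 72. Hoxd1 had 0 reads in KO line 72 and 0.438 to 0.710 CPM in the other lines.

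The line-by-line values show KO lines 33 and 72 on opposite sides. With 0.1 CPM added to each value, KO line 72 was at least 4-fold above the median of the other 5 lines for 7 of 37 Hox genes (18.9%, against 1.25% of all tested genes). These were Hoxa10, Hoxa11, Hoxa13, Hoxd10, Hoxd11, Hoxd12 and Hoxd13. KO line 33 was at least 4-fold below for 3 (Hoxa11, Hoxc10 and Hoxd13, 8.11% against 0.514%), and KO line 41 at least 4-fold above for 3 (Hoxc11, Hoxc12 and Hoxd11, 8.11% against 0.25%). Among WT lines, lines 36 and 47 were at least 4-fold above for Hoxc10 (2.70%, against 0.413% and 0.345%) and line 78 at least 4-fold below for Hoxc10 and Hoxc11 (5.41% against 0.291%). KO line 72 was at least 4-fold below for Hoxd1 (2.70% against 1.92%). Over paralogues 1 to 8, KO line 72 was the lowest of the 6 lines for 16 of 22 genes, at a median of 0.570 times the median of the other lines. In bulk RNA, fewer cells that use a gene and less RNA per cell cannot be told apart.

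**Figure D4:**
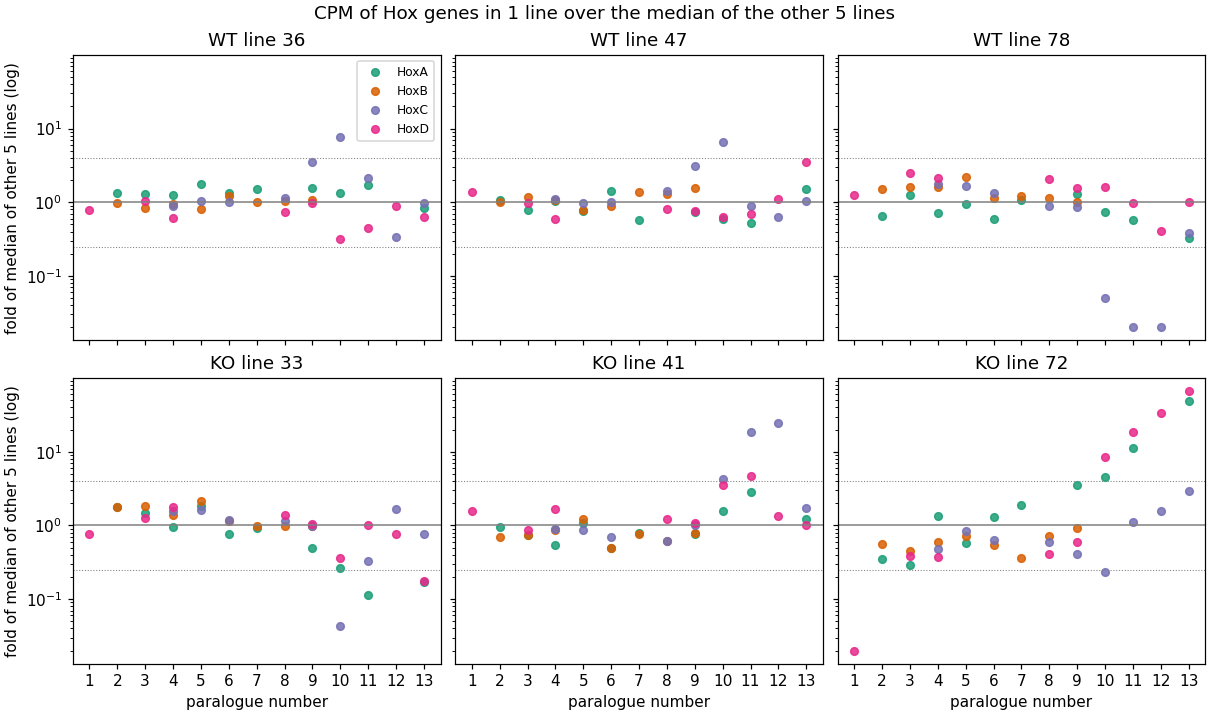
CPM of 36 Hox genes in 1 line divided by the median of the other 5 lines (log axis), against paralogue number and coloured by cluster, 1 panel for each line. Dotted lines mark 4-fold above and below, and values of 0 are drawn at 0.02. In KO line 72 the HoxA and HoxD points climb with paralogue number to 66.6-fold, and in KO line 33 the points past paralogue 9 mostly lie below 1.

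Summed by position, the lines differed in the posterior block and much less elsewhere. The 8 genes of paralogues 11 to 13 summed to 2.46, 3.75 and 1.61 CPM per kb in WT lines and 0.852, 8.92 and 66.4 CPM per kb in KO lines 33, 41 and 72. This block held 54.8% of the summed Hox level in KO line 72, 13.4% in KO line 41, 1.19% in KO line 33 and 1.93% to 4.96% in WT lines. Paralogues 4 to 8 summed to 41.8, 43.7 and 59.7 CPM per kb in WT lines and 51.6, 35.9 and 25.9 in KO lines. The mean paralogue number, weighted by CPM per kb, was 7.50, 7.67 and 7.17 in WT lines and 6.85, 7.97 and 10.5 in KO lines. The group means were 7.45 ± 0.257 in WT and 8.44 ± 1.88 in KO, and 7.41 in KO without line 72. The KO lines lay on both sides of the WT lines and their spread exceeded the difference between the means.

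**Figure D5:**
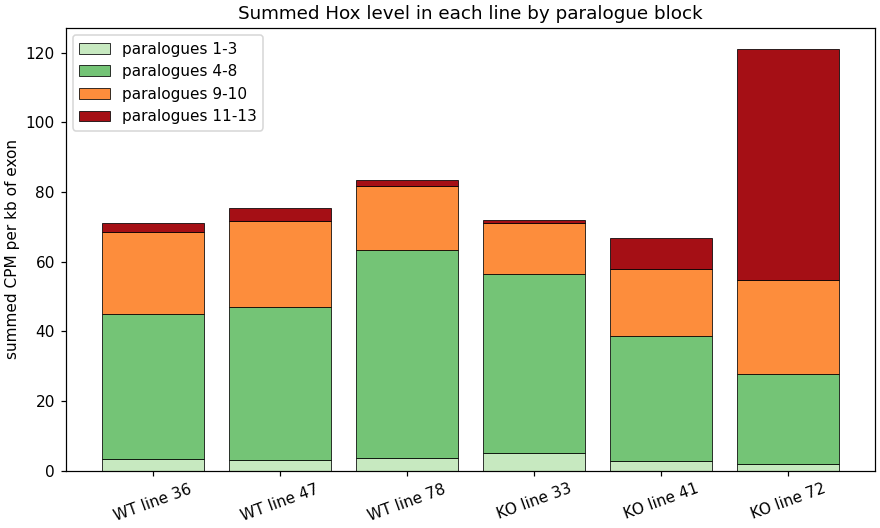
Summed CPM per kb of exon of the Hox genes in each of the 6 lines, stacked by paralogue block (bars start at 0). KO line 72 has 121 CPM per kb in all, of which 66.4 are in paralogues 11 to 13, and the other 5 lines have 66.8 to 83.4 CPM per kb in all.

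Hox genes varied more between lines than most genes did, in WT lines too. The median of the highest over the lowest line, with 0.1 CPM added, was 3.48-fold over the 37 Hox genes and 1.45-fold over all tested genes. It was 2.84-fold for paralogues 1 to 8 and 25.3-fold for paralogues 9 to 13. Of the 37, 12 were among the 5% of tested genes with the widest range, and 11 of these were among the 15 genes of paralogues 9 to 13. Within the 3 WT lines alone the median SD of log2 CPM was 0.43 for Hox genes and 0.13 for all genes. The median edgeR dispersion was 0.203 against 0.0304. Genes were not matched for level in these comparisons, and the part of low counts in the wider spread of Hox genes was not tested.

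Sequencing lane, given in the labels, was shared by WT line 47 and KO lines 33 and 72 (lane 6) and by WT line 78 and KO line 41 (lane 7). WT line 36 was alone in lane 8. Within lane 6 the mean of KO lines 33 and 72 was set against WT line 47, with 0.1 CPM added. Within lane 7 KO line 41 was set against WT line 78. The sign of the log2 fold change was kept within lane 6 for 29 of 37 Hox genes, within lane 7 for 29 and within both for 22. These libraries are also in the fit, so agreement in sign is partly built in. The share over all genes was not computed. Hoxd11 differed by 3.48 on the log2 scale within lane 6 and by 2.05 within lane 7, and Hoxb8 by -0.57 and -0.86. Hoxd13 differed by 3.24 within lane 6 and by 0.00 within lane 7, and Hoxc11 by -0.29 and 5.82. The lane 6 value of Hoxd13 came from KO line 72, since KO line 33 (0.269 CPM) lay below WT line 47 (5.34 CPM). With lane in the edgeR model, 2 of 37 Hox genes had an unadjusted p below 0.05, Hoxb8 and Hoxb9 (unadjusted p = 0.0124), both lower in KO lines. Over all 14773 tested genes 726 were lower and 205 higher at that threshold. No gene of paralogues 11 to 13 had a p below 0.05.

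Leaving out 1 KO line moved the result strongly. Without KO line 33, 16 of 37 Hox genes passed the thresholds of the study, 7 lower and 9 higher, against 6.54% of all genes. The higher ones were Hoxa10, Hoxa11, Hoxa13, Hoxc12, Hoxc13, Hoxd10, Hoxd11, Hoxd12 and Hoxd13, and the lower ones Hoxb2, Hoxb3, Hoxb6, Hoxb7, Hoxb8, Hoxc6 and Hoxc8. Without KO line 72, 2 passed, Hoxd11 and Hoxc12, against 6.68% of all genes, and the median log2 fold change of paralogues 11 to 13 went from 3.59 to 0.49. Without KO line 41, 4 passed, all higher, against 7.24% of all genes, and Hoxa13, Hoxd11 and Hoxd12 were among them. No Hox gene passed the adjusted threshold in any of the 3 fits. Of the 5 genes with an unadjusted p below 0.05 in all 6 lines, Hoxd11 kept it in 5 of the 6 fits that left out 1 line, the exception being the fit without WT line 36. Hoxb8, Hoxc12 and Hoxd12 kept it in 2 of 6 and Hoxc9 in 1 of 6, without WT line 78.

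Transcripts beside the posterior ends followed the genes next to them in KO line 72. Hottip, a noncoding RNA just beyond Hoxa13, had 130 reads in KO line 72 and at most 2 in every other line. Evx2, a homeobox gene just beyond Hoxd13, had 436 reads in KO line 72 and 2 to 8 reads in the others. Neither passed the filter on low counts. Hoxa11os, antisense to Hoxa11, had 0.305, 0.273 and 0.222 CPM in WT lines and 0.0449, 0.370 and 4.65 CPM in KO lines, the same order of KO lines as Hoxa11 (log2 fold change 2.66, SE 1.43, unadjusted p = 0.109), and with strand use not stated its reads cannot be told apart from those of Hoxa11. Hotair, in HoxC, had 13 reads in KO line 41 and at most 4 elsewhere. Of the 5 tested transcripts on the list of named noncoding RNAs of the clusters, 0 had an unadjusted p below 0.05 with edgeR and 0 passed the adjusted test. On that list Hoxaas2 (log2 fold change 0.26) and Hoxb5os (-0.30) had the next smallest p. Gm15050, an antisense transcript in HoxA that is not on the list and was named after its values were seen, had a log2 fold change of -0.62 (SE 0.34, unadjusted p = 0.119).

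Beyond the clusters, 42 tested genes lay within 500 kb. For these the ratio of KO line 72 to the median of the other lines had a median of 0.982, with a highest value of 1.39 and a lowest of 0.0674. Most of them flank HoxB (15) and HoxC (20). The 3 that flank HoxA had a median ratio of 1.12 and the 4 that flank HoxD 0.835. Hottip and Evx2 also lie within 500 kb but did not pass the filter and are not among the 42. Of the 42, 10 had an unadjusted p below 0.05, against 14.6% of all tested genes, and 1 passed the adjusted test, against 0.528%. This was Nckap1l, a blood-cell actin regulator beyond HoxC (log2 fold change -0.86, adjusted p = 0.0320).

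Hox proteins bind DNA with cofactors of the TALE class, the Pbx, Meis and Pknox families. Of the 9 tested, 5 were lower and 4 higher in KO lines, with a median log2 fold change of -0.08, and 0 had an unadjusted p below 0.05 with edgeR, and 0 an adjusted one. The 3 with the smallest p in the edgeR fit were Pbx2 (log2 fold change -0.08), Pknox2 (0.61) and Meis3 (-0.19), with unadjusted p-values from 0.328 to 0.363. Pknox2 had 4.07, 3.55 and 4.02 CPM in WT lines and 10.3, 5.99 and 1.48 CPM in KO lines 33, 41 and 72, on both sides of the WT range. Meis1, a gene of the proximal limb and trunk named here after its values were seen, had 32.4, 33.7 and 32.7 CPM in WT lines and 44.4, 35.2 and 10.2 CPM in KO lines, and Meis2 had 45.6, 42.8 and 39.5 CPM against 55.1, 59.5 and 25.8 CPM. KO line 72 was the lowest line for both.

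The list of Hox regulators held trithorax and Polycomb proteins, which keep Hox genes on or off, and the retinoic acid machinery, which turns on anterior Hox genes. Of 20 tested genes 2 were lower and 3 higher at an unadjusted p below 0.05, against 8.77% and 5.88% of all tested genes, and 0 passed the adjusted test. Ezh1 (log2 fold change -0.31, SE 0.07, unadjusted p = 0.00477) and Ezh2 (0.41, SE 0.12, unadjusted p = 0.0119), the alternative methyltransferases of Polycomb complex PRC2, went in opposite directions. Ezh1 had 25.8, 25.7 and 28.0 CPM in WT lines and 21.6, 21.7 and 21.0 CPM in KO lines, and Ezh2 had 15.4, 20.2 and 16.7 against 24.6, 22.8 and 22.4 CPM, with no overlap for either. Cyp26b1, which breaks down retinoic acid, had 31.4, 28.6 and 29.8 CPM in WT lines and 41.2, 33.1 and 55.5 CPM in KO lines (log2 fold change 0.53, SE 0.18, unadjusted p = 0.0269). Ezh2 is known to be higher in dividing cells, and the 6 proliferation markers were all higher in KO lines by sign, as were 7608 of all 14773 tested genes. Of the 6 markers 3 had an unadjusted p below 0.05, against 5.88% of all tested genes in that direction. The sums of the proliferation markers were 370 to 549 CPM in WT lines and 514 to 731 CPM in KO lines. Their part in the Ezh2 value was not tested.

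Genes that mark limb type and limb axes varied by line as well. Of 8 tested, 4 were lower and 4 higher, and 0 had an unadjusted p below 0.05 with edgeR or passed its adjusted test. Tbx4, a hindlimb factor, had 6.89, 2.04 and 0.465 CPM in WT lines and 0.539, 0.178 and 1.06 CPM in KO lines (log2 fold change -2.39, unadjusted p = 0.0620). Its highest values were in WT lines 36 and 47, which were also the highest for Hoxc10. KO line 41, which had 4.41 CPM of Hoxc10, had the lowest Tbx4 value of all lines. Pitx1 and Isl1, on the same list and named after their values were seen, were not low in that line. Pitx1 had 14.4, 2.42 and 0.121 CPM in WT lines and 0.314, 4.22 and 0.881 CPM in KO lines. Isl1, which did not pass the filter on low counts, had 50 reads in KO line 41 and at most 8 elsewhere. Hand2, of the posterior limb margin, had 7.17 CPM in KO line 72 and 1.85 to 3.06 CPM in the other lines. Alx4, of the anterior margin, had 2.36 CPM in KO line 72 and 4.74 to 13.1 CPM in the others. Tbx5 and Gli3, on the same list and named after their values were seen, were like Hand2 highest in KO line 72. Tbx5 had 15.1 CPM there and 5.54 to 10.1 CPM in the others, and Gli3 133 CPM and 92.8 to 101 CPM. Lmx1b, a dorsal limb factor named here after its values were seen, had 35.8 CPM in KO line 72 and 1.72 to 6.83 CPM elsewhere. From the list for Hox-free head mesenchyme, with 4 tested genes, Dlx5 was higher in all KO lines, at 0.505, 0.296 and 0.778 CPM against 0.106, 0.149 and 0.121 CPM (log2 fold change 2.06, SE 0.45, unadjusted p = 0.00352, adjusted p = 0.133). Tfap2a (log2 fold change 1.42, unadjusted p = 0.209) had 26.5 CPM in KO line 72 against 1.29 to 7.64 CPM elsewhere, and Alx1 (log2 fold change 0.80, unadjusted p = 0.584) had 0 reads in that line. Glial and neural crest markers were highest in KO line 33, with a sum of 14.3 CPM against at most 4.53 CPM in any other line, and their part in its Hox values was not tested.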

How the data were processed

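The authors deposited 1 table that holds, for each gene, the raw count in each of the 6 libraries, without normalization, beside their own comparison of the genotypes (log2 fold change and log2 mean CPM, an F score, p-value and q-value, as the authors deposited them), which was not used. Libraries were made from total RNA with an Illumina TruSeq kit. The submitters' processing notes name edgeR and mm10, while aligner, counter and strand setting are not given in the sources used here. The Ensembl identifiers of all 17512 genes were found in GENCODE M21. Counts were filtered with filterByExpr, scaled by TMM and fitted with edgeR 4.0.16 (glmQLFit, glmQLFTest, genotype alone, two-sided) in R 4.3.3, with Benjamini-Hochberg adjustment over 14773 genes. SE is the log2 fold change over the square root of F. CPM are TMM-scaled, and CPM per kb divides by merged exon length. The scripts were tested on simulated data. Alternatives used DESeq2 1.42.0 and limma 3.58.1. Each line was 1 replicate, and nothing says that lines of a genotype came from separate litters, so p-values measure the spread between lines. With 3 lines against 3 an exact permutation test cannot go below 0.1. No column of sample values was left without a sample. The members and lists were chosen with earlier results of these data known. 1 member, counted in the totals, is not reported here. Every other Hox gene was named with its level, with full statistics for those with an unadjusted p below 0.05 and for the genes of smallest p in each direction (up to 5), and up to 3 genes with the smallest p from each other list. Promoter and miRNA sequences are from RefSeq. Intervals were not computed for low counts, and a count of 0 allows up to 3 reads by counting error alone at depths of at least 67720628 counts.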

Additional observations from a re-analysis of the deposited data

How the results depend on the processing

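With DESeq2 size factors or total counts in place of TMM the 10 Hox genes with full statistics kept their direction and their side of 0.05. The count of Hox genes past the adjusted threshold was 0 with edgeR under every setting tried, and 1 with the DESeq2 Wald test. The count past 1.5-fold and an unadjusted p below 0.05 was 4. It was 0 with voom and sample quality weights, 1 with sequencing lane in the model, and 1 to 16 when each line was left out in turn. Over all 14773 genes, 682 were lower and 221 higher by these thresholds in the main fit. With voom these all-gene counts were 712 and 251, and with lane in the model they were 469 and 60. Without WT line 36 they were 577 and 111 of 15025 genes, and without KO line 33 they were 737 and 245 of 15013. Hat1 kept its sign, with log2 fold changes from -1.08 to -0.87 when a line was left out, -1.10 with lane and -0.97 with only the lines of low Y-linked counts, and its adjusted p was above 0.05 in those 8 fits, which have fewer samples or residual degrees of freedom. Among the Hox genes with full statistics and the genes named from the lists, values that changed sign were Hoxa13 (-0.14 with voom, and -0.48 without KO line 72 to 4.66 without KO line 33), Hoxa11os (-0.30 with voom, and -0.39 without KO line 72 to 3.23), Hoxb5os (0.075 with voom, and -0.53 to 0.22 without WT line 78), Pknox2 (-0.057 without KO line 33 to 1.08), Tfap2a (-0.15 without KO line 72 to 2.15), and, with only the lines of low Y-linked counts, Meis3 (0.17) and Tbx4 (0.37). Other Hox genes that changed sign included Hoxa10 (-0.10), Hoxd13 (-1.54) and Hoxd8 (0.018) without KO line 72 and Hoxc11 (-0.46) without KO line 41. The cause was not tested. Levels with the longest transcript in place of merged exons moved by more than the SD between lines for 10 of 74 group means and scaling by total counts moved none. No paired analysis was possible because the genotypes share no replicate numbers. Where leaving out a line leaves few samples, the spread is pooled over both genotypes. In KO line 72, WT line 78 and others, genes at 0 to 20 reads limit the fold changes of Hoxc11, Hoxc12, Hoxd1 and Hoxd12.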
